A study of Mus musculus with 12 samples.

Results

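This account covers the genes named as proteasome subunits and their close partners in the cerebellum of mice with a spinocerebellar ataxia type 1 (SCA1) mutation. Members were all protein-coding genes whose mouse symbol starts with Psm followed by a letter from a to g and a number, with at least 10 reads in at least 4 of the 12 libraries. Of 50 genes that matched the symbol and type, 48 met the read minimum, out of 55401 genes in the tables and 20099 genes with the same read minimum. The 2 that did not meet it were Psma8, a germline alpha subunit, with at most 9 reads in any library, and Psmb11, the thymus-specific catalytic subunit, with at most 5. The rule used symbols and read numbers and no difference between groups. The members comprised 14 core subunits, 17 regulatory subunits, 3 immunoproteasome subunits, 6 activators or inhibitors, 3 chaperones of the regulatory base and 4 chaperones of the core. The remaining member, Psmc3ip, is named for an interaction, acts in meiotic recombination and is not a proteasome gene.

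The proteasome degrades proteins tagged with ubiquitin. Its core particle is a barrel of alpha and beta rings in which Psmb5, Psmb6 and Psmb7 hold the proteolytic sites, and its regulatory particle has a base with 6 ATPases, Psmc1 to Psmc6, that unfold substrates, and a lid that removes ubiquitin. Interferon induces 3 catalytic subunits, Psmb8, Psmb9 and Psmb10, which take the places of Psmb5, Psmb6 and Psmb7 in the immunoproteasome, and also the activator subunits Psme1 and Psme2, which cap the core in a ring. In brain, immunoproteasome subunits are known mainly from glia, and the polyglutamine protein ataxin-1 of SCA1 is known to form nuclear inclusions that stain for ubiquitin and proteasome.

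RNA was sequenced from whole cerebellum of 12 mice, 1 library per mouse. The WT DMSO group held 4 wild-type mice given the solvent dimethyl sulfoxide (DMSO). The Het DMSO group held 4 Atxn1 154Q/2Q knock-in mice, which carry an expanded CAG repeat in 1 copy of the mouse ataxin-1 gene, given DMSO. The Het Hit 2 group held 4 such knock-in mice given the compound Hit 2, dissolved at 25 mg/ml in DMSO. All mice, controls included, received DMSO under 4 ml/kg by daily intraperitoneal injection from 18 weeks of age, in 2 courses of 5 days separated by 2 rest days, and tissue was taken at 20 weeks. Libraries are named by the number in their label, which is taken here as the animal's number. Values per library are given in the order 413, 425, 426 and 431 for WT DMSO, 409, 411, 420 and 429 for Het DMSO, and 410, 421, 422 and 430 for Het Hit 2. No wild-type mice given Hit 2 were analysed here.

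The libraries held 15855751 to 45265719 reads assigned to genes, and levels are given as CPM, which divides a count by its library size after scaling with the trimmed mean of M-values (TMM). Libraries 409 and 411 of Het DMSO stood apart from the other 10. In 409, mitochondrial genes took 0.0795% of gene reads, against 1.85% to 2.81% in the 10 others. In 411, a list of 12 granule cell markers summed to 266 CPM and a list of 12 Purkinje cell markers to 779 CPM. The other 11 libraries had 4385 to 9819 and 3597 to 8046 CPM for these lists. Each of the 12 granule cell markers was lowest in 411, though none was at 0, so the labelled cerebellum showed only weakly in that library. In bulk tissue, fewer cells of a type and less RNA per cell cannot be told apart. WT DMSO libraries 425 and 426 had 1393 and 1464 CPM of Xist, against at most 0.290 CPM in the others. Results are therefore given with and without 409 and 411.

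Core and regulatory genes were expressed at similar levels, and immunoproteasome genes far below them. Per kb of the longest protein-coding transcript, core subunits in WT DMSO ranged from 15.3 CPM per kb for Psmb5 to 55.6 for Psmb6, with a median of 29.2. Regulatory subunits ranged from 19.4 CPM per kb for the ATPase Psmc6 to 61.3 for the ATPase Psmc5, with a median of 30.7. The mean core subunit stood at 92.3% ± 0.839 (SD, n = 4) of the mean regulatory subunit in WT DMSO, 94.8% ± 2.72 in Het DMSO and 92.6% ± 2.57 in Het Hit 2, and the groups overlapped. Of the immunoproteasome genes, Psmb9 stood at 0.411 CPM per kb, Psmb8 at 0.698 and Psmb10 at 5.43. Chaperones were also below the subunits they assemble, at 4.03 (Psmg3) to 7.33 (Psmg1) CPM per kb for the core and 4.00 (Psmd10) to 10.04 (Psmd9) for the base. Among activators, nuclear Psme3 had 27.5 CPM per kb, the large activator Psme4 19.4, Psme2 13.7 and Psme1 7.44, while the inhibitor Psmf1 had 10.9.

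**Figure D1:**
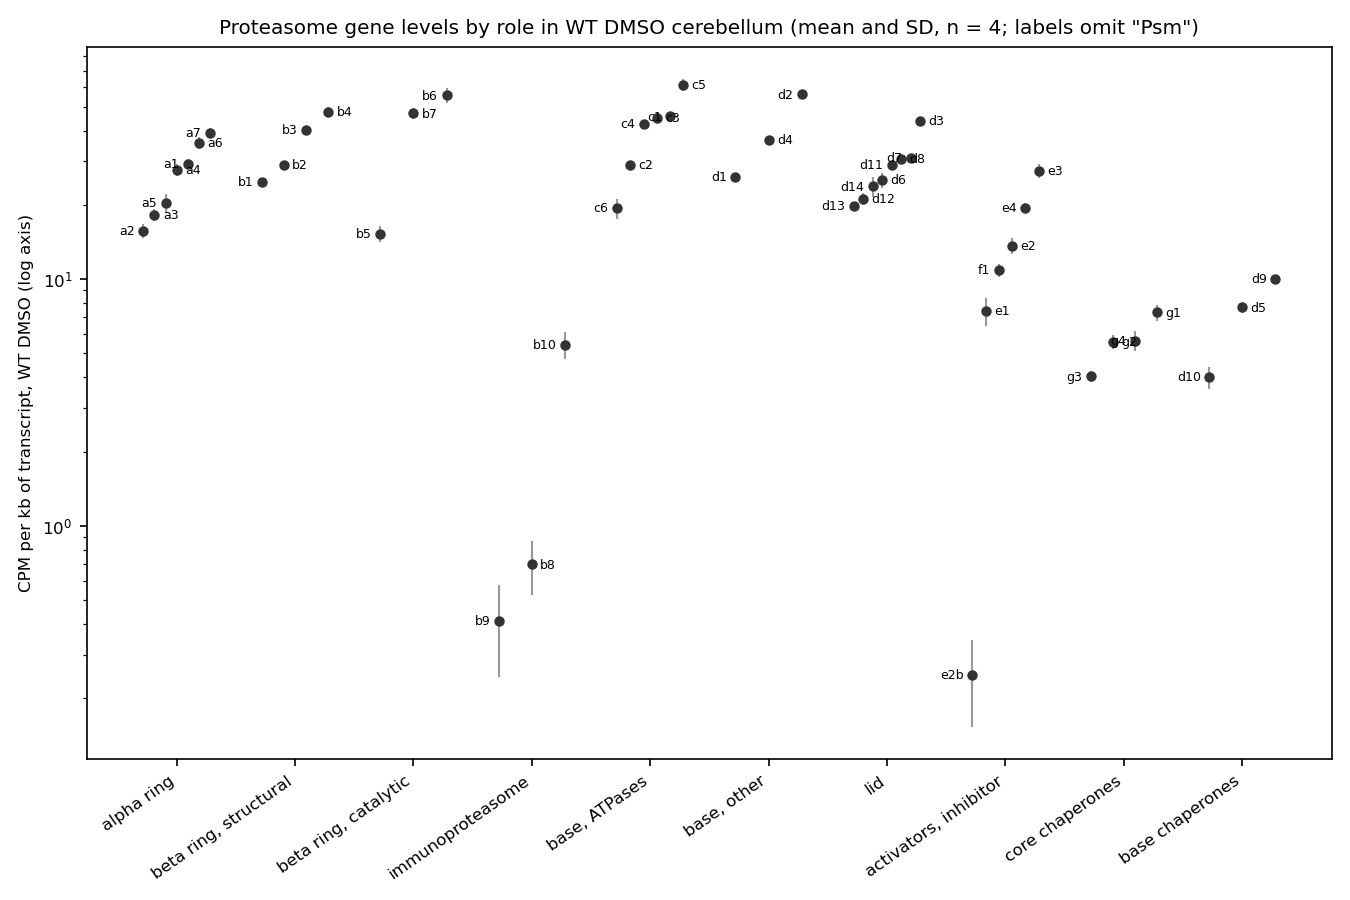
Mean level in WT DMSO of each member by role, in CPM per kb of transcript on a log axis, with bars for the SD over 4 libraries; Psmc3ip is not drawn. Core and regulatory subunits lie between 15.3 and 61.3 CPM per kb, whereas Psmb8, Psmb9 and Psme2b, a near copy of Psme2, lie below 1.

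Psmb8 reached 4.57% ± 1.15 (SD, n = 4) of the level of Psmb5 in WT DMSO, 4.34% ± 0.937 in Het DMSO and 4.06% ± 1.61 in Het Hit 2. Psmb9 stood at 0.730% ± 0.266 of Psmb6 in WT DMSO, 0.913% ± 0.226 in Het DMSO and 0.842% ± 0.458 in Het Hit 2. Psmb10 stood at 11.6% ± 1.32 of Psmb7 in WT DMSO, 15.0% ± 6.06 in Het DMSO and 14.6% ± 4.06 in Het Hit 2. All 3 ratios overlapped between the groups. They depend on the length taken for each gene: with all annotated exons in place of 1 transcript, Psmb8 stood at 2.202% of Psmb5, Psmb9 at 0.633% of Psmb6 and Psmb10 at 26.2% of Psmb7 in WT DMSO.

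Promoter windows are shown for 5 members on which the comparisons below turn: the interferon-inducible activator pair Psme1 and Psme2, the immunoproteasome gene Psmb8, and the constitutive catalytic genes Psmb5 and Psmb6. Each printed stretch runs 5′ to 3′ on the gene's strand from 250 bases before to 30 bases after the annotated start, from RefSeq on GRCm38.p6. Capitals mark a match to the core of an interferon response element, 2 copies of GAAA separated by 2 bases of any kind, in Psme1, to a gamma-activated site, TTCNNNGAA, in Psmb8, and to an antioxidant response element core, TGACNNNGC, in Psmb5 and Psmb6.
Psme1, chr14:55578244-55578523, plus strand: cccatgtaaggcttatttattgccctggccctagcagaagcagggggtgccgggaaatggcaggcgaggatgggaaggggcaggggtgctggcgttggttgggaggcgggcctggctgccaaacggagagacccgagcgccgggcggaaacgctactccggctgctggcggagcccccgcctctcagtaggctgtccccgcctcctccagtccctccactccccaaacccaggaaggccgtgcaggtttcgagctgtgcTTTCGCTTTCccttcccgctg
Psme2, chr14:55591072-55591351, minus strand: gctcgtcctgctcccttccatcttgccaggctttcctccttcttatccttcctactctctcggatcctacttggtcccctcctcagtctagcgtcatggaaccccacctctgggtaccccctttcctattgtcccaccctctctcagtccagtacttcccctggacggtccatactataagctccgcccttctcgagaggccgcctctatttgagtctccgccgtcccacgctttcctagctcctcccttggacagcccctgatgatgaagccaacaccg
Psmb8, chr17:34197945-34198224, plus strand: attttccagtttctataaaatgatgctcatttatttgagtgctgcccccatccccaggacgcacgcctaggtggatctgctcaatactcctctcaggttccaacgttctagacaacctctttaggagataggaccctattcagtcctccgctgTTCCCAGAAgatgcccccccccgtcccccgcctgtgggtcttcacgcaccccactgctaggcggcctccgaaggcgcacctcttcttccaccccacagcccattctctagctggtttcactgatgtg
Psmb5, chr14:54617966-54618245, minus strand: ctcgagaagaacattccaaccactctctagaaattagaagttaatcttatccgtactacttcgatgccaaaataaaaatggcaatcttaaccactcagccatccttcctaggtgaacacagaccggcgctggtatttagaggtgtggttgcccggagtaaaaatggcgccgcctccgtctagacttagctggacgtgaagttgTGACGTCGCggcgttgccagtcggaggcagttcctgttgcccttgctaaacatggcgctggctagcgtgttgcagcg
Psmb6, chr11:70525107-70525386, plus strand: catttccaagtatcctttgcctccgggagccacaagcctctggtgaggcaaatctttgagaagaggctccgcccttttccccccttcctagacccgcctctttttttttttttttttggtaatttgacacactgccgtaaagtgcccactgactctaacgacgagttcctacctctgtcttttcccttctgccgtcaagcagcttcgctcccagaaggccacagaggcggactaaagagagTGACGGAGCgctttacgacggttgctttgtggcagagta
In Psme1 the match lies on the opposite strand and begins at transcribed base 10. The Psmb8 match begins 97 bases before the start, that of Psmb5 47 bases before and that of Psmb6 9 bases before. The window of Psme2 held no such pair of GAAA.

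Each motif was searched on both strands of the whole RefSeq windows, which run past the stretches printed above to 300 bases. There were 32851 windows, 43 of which belonged to 40 of the 48 members. The spaced pair of GAAA was in 5 of the 43 member windows (11.6%) and in 3.44% of all windows, and the other 4 genes with it were Psmb3, Psmd4, Psmd9 and Psmg4. TTCNNNGAA, which is its own reverse complement, was in 6.98% of member windows (Psmb8, Psmd2 and Psmg1) and in 8.30% of all. TGACNNNGC was in 13.95% of member windows and 12.4% of all. The related core TGAGNNNGC was in 30.2% of member windows and 17.6% of all. A match is a description of the letters and not of binding. Psme1 and Psme2 are near neighbours in the annotation, with Emc9 between them, and Psmb9 and Psmb8 are interleaved with the peptide transporter genes Tap1 and Tap2 on chromosome 17.

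Core and regulatory genes varied little among the mice other than 409 and 411. The median within-group SD of log2 CPM in WT DMSO was 0.08 for the 14 core genes and 0.05 for the 17 regulatory genes, against 0.10 for 7962 genes in the same range of mean CPM. The SDs in Het Hit 2 were 0.09 and 0.08, against 0.12 for those genes. In Het DMSO they were 0.31 and 0.30, against 0.41. The 3 immunoproteasome genes had a higher median SD than these in WT DMSO, at 0.38, and in Het Hit 2, at 0.54, and a lower one in Het DMSO, at 0.19. In Het DMSO Psmb10 alone was at 0.78, above the highest core gene (0.45) and the highest regulatory gene (0.75). Psmb8 and Psmb9 lay far below the CPM range of the core and regulatory genes, so these SDs are not strictly comparable.

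**Figure D2:**
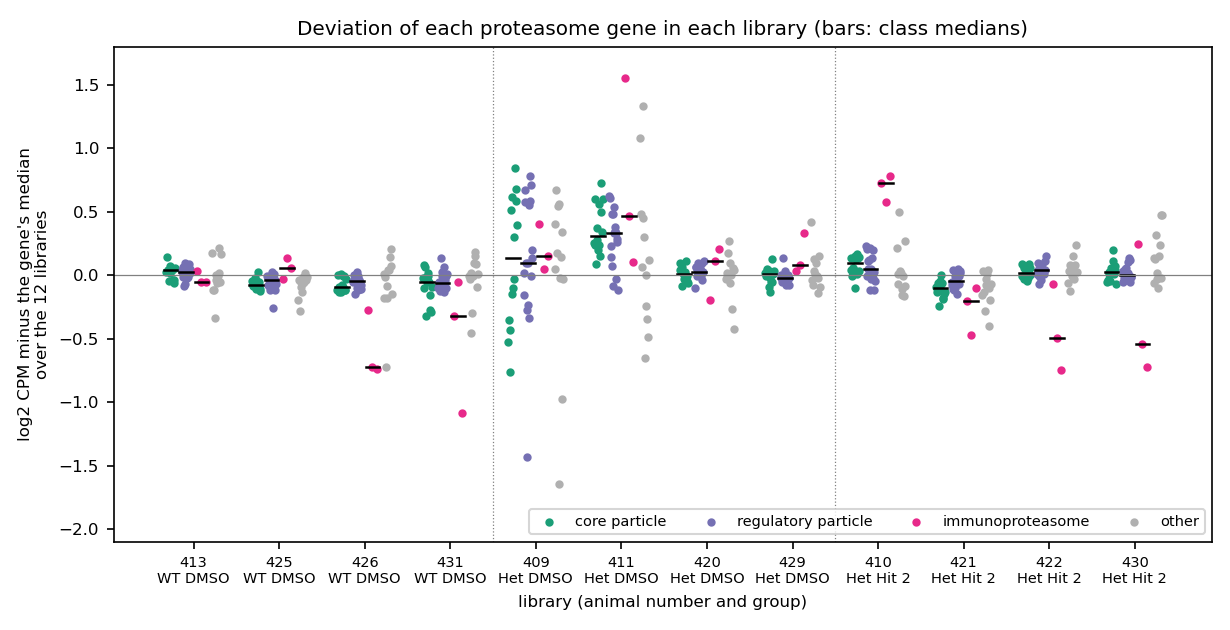
Each point is 1 tested proteasome gene in 1 library, as log2 CPM minus that gene's median over the 12 libraries; black bars are class medians, and grey points are activators, the inhibitor and chaperones. Core and regulatory genes stay close to 0 in 10 libraries, spread both ways in 409 and lie mostly above 0 in 411.

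In each of the 10 libraries other than 409 and 411, between 28 and 31 of the 31 core and regulatory genes lay within 0.25 log2 units of their median over the 12 libraries, where 56.2% to 78.9% of all genes did. In 409, 11 did, where 22.8% of all genes did: 13 were higher and 7 lower, from -1.43 for Psmc6 to 0.84 for Psmb4. In 411 also 11 did, where 29.9% of all genes did, but 20 were higher and 0 lower, up to 0.73 for Psmb4.

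The first comparison, Het DMSO against WT DMSO, asks how the SCA1 mutation goes with proteasome expression. No proteasome gene changed by the test. The largest difference was in the activator subunit Psme1, 2.00-fold higher in Het DMSO, followed by Psmb10, Psmb9, Psmd10, Psmb4, Psmb5 and Psme2, with fold values from 1.38 to 1.70. By edgeR's quasi-likelihood test with Benjamini-Hochberg adjustment over 19378 genes, 0 of 47 members tested had an adjusted p under 0.05, where 0.00516% of all genes (1 gene) had. The smallest adjusted p among members was 0.616. DESeq2 called 0 members, where it called 0.117% of all genes, and limma with library weights called 0, where it called 0.506%. Over all 23 alternatives the smallest adjusted p was 0.160, for Psme1.

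At an unadjusted p under 0.05, 11 members were higher in Het DMSO and 0 lower, where 4.77% of all genes were higher and 2.34% lower. These were Psma5, Psmb4, Psmb5, Psmb6, Psmb7, Psmb10, Psmd2, Psmd10, Psme1, Psme2 and Psme3. DESeq2 put 11 members under that threshold (5.46% of all genes) and limma with library weights 2 (9.4% of all genes). With 1 library left out at a time, the number ran from 4 (without WT DMSO library 431) to 17 (without Het DMSO library 429). Of those 17, 16 were higher and Psmg2 was lower. The share of all genes was not taken for the fits with 1 library left out. Without WT DMSO libraries 425 and 426 the number was 2, Psme1 and Psme2, where 2% of all genes were under the threshold. A log2 fold change above 0 was found for 38 of 47 members, against 55.8% of all genes, and the median was 0.16 against 0.05. All 4 Het DMSO libraries lay above all 4 WT DMSO libraries for 5 members, Psma5, Psmb6, Psmb9, Psme1 and Psme2, where 1.94% of all genes did so. In a fit without 409 and 411, 2 members had an unadjusted p under 0.05, Psme1 and Psme2, where 5.83% of all genes had. There edgeR called 0 of 47 members at an adjusted p under 0.05, where it called 0.0895% of all genes. The median was then 0.04 and 30 members lay above 0, against 48.6% of all genes. The lean towards higher values in Het DMSO was thus smaller without those libraries but remained. Of the members, 63.8% lay above 0, against 80.9% with all libraries. The part of 409 and 411 in it was not tested further.

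The second comparison, Het Hit 2 against Het DMSO, asks what the compound does in knock-in mice. Again no proteasome gene changed by the test: edgeR called 0 of 47 members at an adjusted p under 0.05, where 0% of all genes were called, and the smallest adjusted p was 0.898. The members leaned the other way. At an unadjusted p under 0.05, 3 were lower in Het Hit 2, namely Psmb4, Psmd10 and Psme2, and 0 higher, where 0.8% of all genes were lower and 0.753% higher. DESeq2 and limma with library weights each called 0 members, where each called 0% of all genes. At the unadjusted threshold DESeq2 had 3 members, against 1.51% of all genes, and limma 1, against 5.04%. With 1 library left out at a time the edgeR number ran from 0 (without 421 or 430) to 9 (without 429). Of 47 members, 11 had a log2 fold change above 0, against 44.3% of all genes, and the median was -0.10 against -0.04. No member's groups failed to overlap, where 0.392% of all genes were lower and 0.635% higher without overlap. With 409 and 411 left out, 0 members had an unadjusted p under 0.05, where 3.72% of all genes had. The median was then 0.01, and 25 members lay above 0, against 52.3% of all genes.

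The third comparison, Het Hit 2 against WT DMSO, sets treated knock-in mice beside the wild type. The levels of nearly all members were close, with a median log2 fold change of 0.06, against 0.02 for all genes. By edgeR, 0 of 47 members had an adjusted p under 0.05, where 0.00516% of all genes had, and 0 had an unadjusted p under 0.05, where 1.71% had. DESeq2 called 0 members (0.0643% of all genes) and put 0 under the unadjusted threshold (1.27% of all genes). For limma with library weights, 0 members were called (1.14% of all genes) and 2, Psme1 and Psmd5, were under that threshold (12.9% of all genes). Of the members, 38 had a log2 fold change above 0, against 55.7% of all genes. Without WT DMSO libraries 425 and 426 it was 28 of 47, against 53.6% of all genes, and the median was 0.017. For 5 members all Het Hit 2 libraries lay above all WT DMSO libraries, namely Psmc4, Psmd2, Psmd5, Psme1 and Psme2, where 2.9% of all genes did so. In the fit without 409 and 411, Psme1 and Psmd5 had an unadjusted p under 0.05, where 9.5% of all genes had, and 0 members were called, where 0.448% of all genes were. There 35 of 47 members lay above 0, against 52.5% of all genes. The comparisons share groups by pairs, so their values are not independent.

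**Figure D3:**
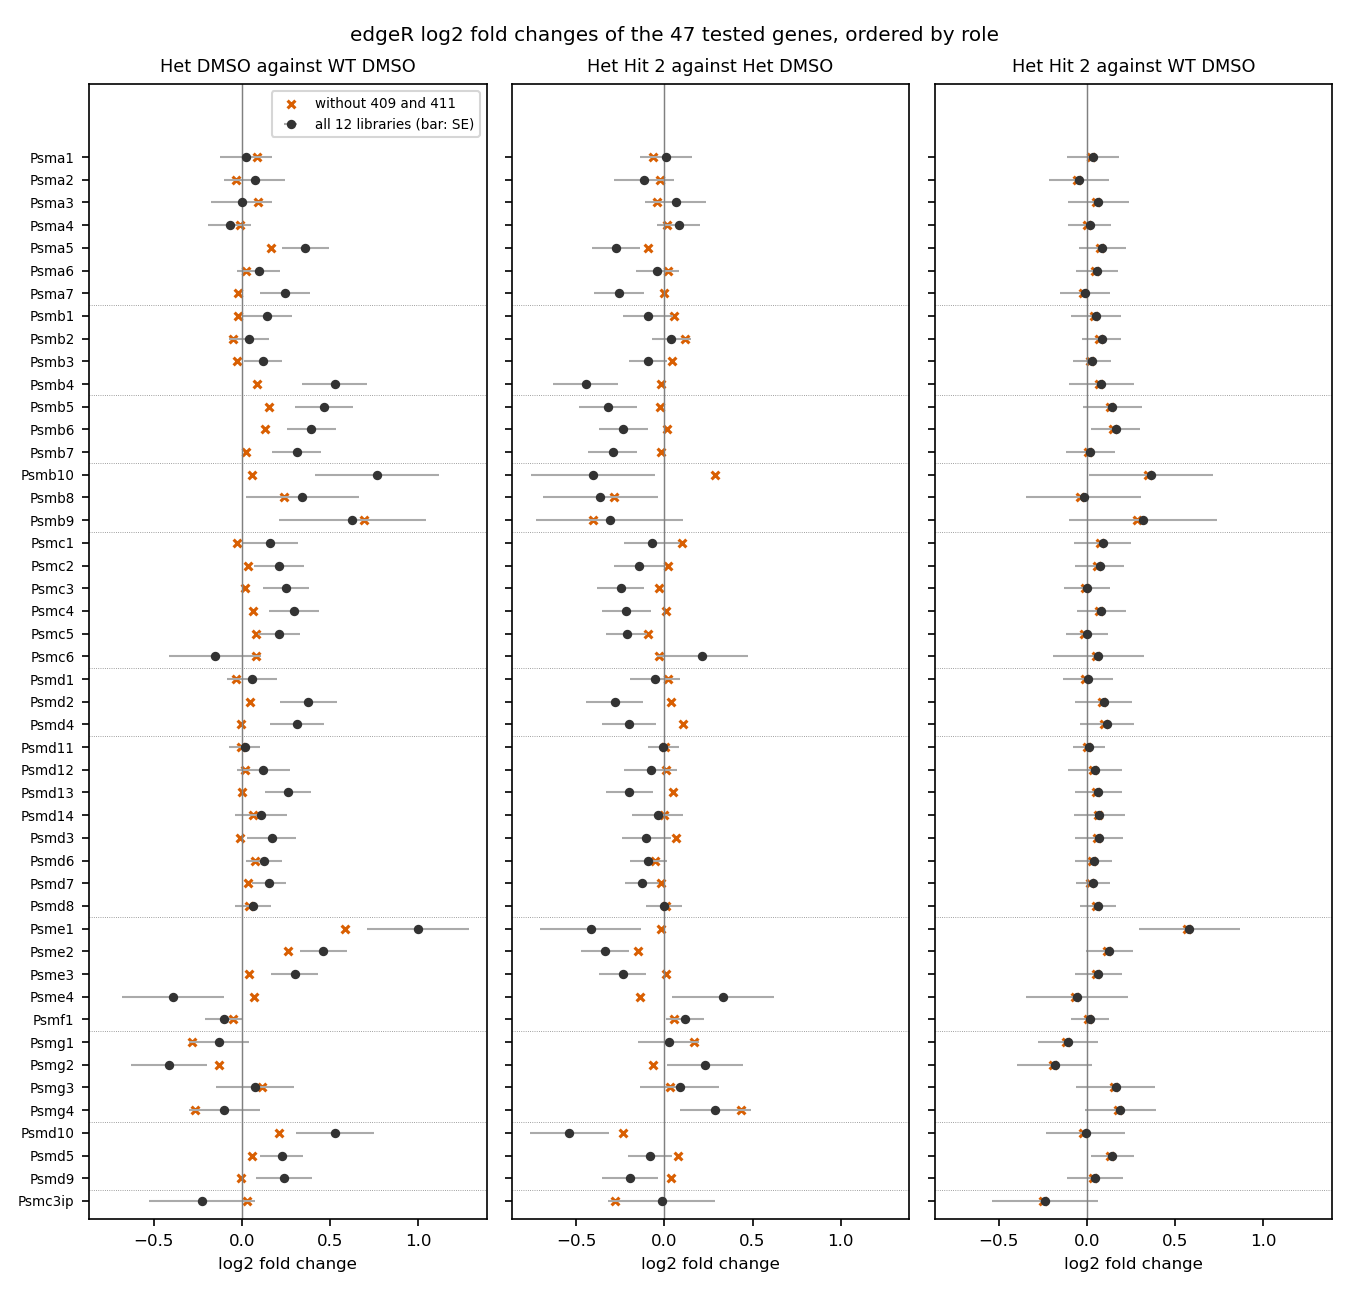
The edgeR log2 fold change with its SE (black points and grey bars) for the 47 tested members in the 3 comparisons, ordered by role, and the value in a fit without libraries 409 and 411 (orange crosses). In the first panel most black points lie right of 0 and most crosses lie nearer to 0, with Psme1 at 1.00 and 0.58.

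The median log2 fold change in Het DMSO against WT DMSO was 0.13 for the core particle, 0.16 for the regulatory particle and 0.63 for the immunoproteasome. These medians were 0.02, 0.04 and 0.24 without 409 and 411. For Het Hit 2 against Het DMSO they were -0.11, -0.10 and -0.36, and -0.01, 0.0082 and -0.28 without these libraries. For Het Hit 2 against WT DMSO they were 0.05, 0.06 and 0.32, and in the fit without these libraries 0.04, 0.05 and 0.28. Core and regulatory genes thus had nearly equal medians in every comparison, while the value for the immunoproteasome rests on 3 genes, of which Psmb8 and Psmb9 were near 1 CPM.

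Among the 7 alpha subunits, which form the outer rings and the gate of the core, 5 had a log2 fold change above 0 in Het DMSO against WT DMSO (4 without 409 and 411). Psma5 had 26.7, 26.7, 25.5 and 22.0 CPM in WT DMSO, 39.2, 33.3, 28.8 and 28.3 CPM in Het DMSO and 28.7, 23.2, 28.6 and 26.6 CPM in Het Hit 2. Every Het DMSO library was above every WT DMSO library, with 409 and 411 highest. Its log2 fold change was 0.36 (standard error 0.13; edgeR unadjusted p = 0.0199, adjusted p = 0.616), and 0.17 without 409 and 411. Psma7, the alpha subunit with the highest level per kb, had 47.2, 43.2, 46.7 and 44.8 CPM in WT DMSO, 71.5, 53.5, 46.6 and 43.6 CPM in Het DMSO and 43.4, 43.0, 46.3 and 47.4 CPM in Het Hit 2. Library 409 was highest and 411 next, and the other 10 were within a narrow range. Psma1, Psma3 and Psma4 were lowest of all libraries in 409, at 25.1, 32.0 and 24.3 CPM, where the other Het DMSO libraries had 30.8 CPM or more of each. Psma2 and Psma6 were also lowest in 409, at -0.35 and -0.15 log2 units from their medians over the 12 libraries.

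The 4 structural beta subunits hold the catalytic ones in place. Psmb4 had 57.8, 56.1, 59.0 and 53.4 CPM in WT DMSO, 106, 98.3, 64.0 and 57.1 CPM in Het DMSO and 66.5, 51.9, 61.2 and 59.6 CPM in Het Hit 2. Libraries 409 and 411 were far above the rest, while 420 and 429 were close to the wild type. The difference (log2) was 0.53 (standard error 0.18; edgeR unadjusted p = 0.0143, adjusted p = 0.616) between Het DMSO and WT DMSO and -0.45 (standard error 0.18; unadjusted p = 0.0321, adjusted p = 0.898) for Het Hit 2 against Het DMSO. They came to 0.09 and -0.02 without 409 and 411. Psmb2, which had the smallest p of this list in Het Hit 2 against WT DMSO, had 25.9, 24.0, 25.0 and 24.9 CPM in WT DMSO, 24.6, 29.6, 25.6 and 22.9 CPM in Het DMSO and 27.4, 25.2, 24.3 and 28.8 CPM in Het Hit 2. Its groups overlapped.

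All 3 constitutive catalytic subunits were higher in Het DMSO than in WT DMSO at an unadjusted p under 0.05, where 4.77% of all genes were. Without 409 and 411, 0 of 3 were under that threshold, where 5.83% of all genes were. Psmb5, which carries the chymotrypsin-like site, had 14.5, 14.4, 13.8 and 12.3 CPM in WT DMSO, 23.9, 21.1, 14.5 and 16.4 CPM in Het DMSO and 16.4, 13.2, 15.8 and 15.3 CPM in Het Hit 2. Psmb6, with the caspase-like site, had 46.9, 45.31, 45.1 and 40.0 CPM in WT DMSO, 73.1, 61.9, 48.7 and 49.2 CPM in Het DMSO and 54.0, 44.0, 48.9 and 51.5 CPM in Het Hit 2. Psmb7, with the trypsin-like site, had 58.5, 51.8, 55.1 and 52.8 CPM in WT DMSO, 73.9, 85.2, 54.0 and 57.5 CPM in Het DMSO and 57.4, 51.3, 58.5 and 53.7 CPM in Het Hit 2. In each gene 409 and 411 were the highest of all 12 libraries, and only for Psmb6 did 420 and 429 also lie above every WT DMSO library. In log2 terms, Het DMSO differed from WT DMSO by 0.47 (standard error 0.16) for Psmb5, 0.39 (standard error 0.14) for Psmb6 and 0.31 (standard error 0.14) for Psmb7, each with an edgeR adjusted p of 0.616. Leaving out 409 and 411 gave 0.16, 0.13 and 0.02. The log2 fold changes of Het Hit 2 against Het DMSO were -0.32, -0.23 and -0.29, and -0.025, 0.015 and -0.017 without 409 and 411. With all libraries 0 of 3 had an unadjusted p under 0.05, where 0.8% of all genes were lower and 0.753% higher.

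The immunoproteasome counterparts of these genes were low and uneven between mice. Psmb8, the counterpart of Psmb5, had 1.21, 1.39, 0.732 and 1.21 CPM in WT DMSO, 1.31, 1.77, 1.37 and 1.33 CPM in Het DMSO and 1.91, 0.890, 0.874 and 0.844 CPM in Het Hit 2. Psmb9, the counterpart of Psmb6, had 0.714, 0.777, 0.418 and 0.313 CPM in WT DMSO, 0.838, 0.808, 0.871 and 0.959 CPM in Het DMSO and 1.33, 0.692, 0.414 and 0.422 CPM in Het Hit 2. In both genes library 410 was the highest of all, and the other Het Hit 2 libraries lay within or close to the wild-type range. For Psmb9 all Het DMSO libraries were above all WT DMSO libraries, by 0.03 CPM at the closest (exact two-sided permutation p = 0.0286, the smallest that 4 against 4 allows). Any 4 against 4 without overlap gives this p, and Psmb9 had only 7 to 34 reads per library. Its log2 fold change of 0.63 had an SE of 0.41 and an edgeR adjusted p of 0.623. For Psmb8 the log2 fold change was 0.34 (standard error 0.32; edgeR adjusted p = 0.678). With 409 and 411 left out, Psmb9 was at 0.69 and Psmb8 at 0.24.

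Psmb10, the counterpart of Psmb7, had 8.03, 7.68, 6.49 and 6.27 CPM in WT DMSO, 10.4, 23.2, 6.85 and 8.05 CPM in Het DMSO and 13.0, 6.82, 7.47 and 9.34 CPM in Het Hit 2. Library 411 stood highest and 410 next, while 420 and 429 of Het DMSO were within or just above the wild-type range. Its log2 fold change in Het DMSO against WT DMSO was 0.77 (standard error 0.35; edgeR unadjusted p = 0.0499, adjusted p = 0.616), and 0.06 without 409 and 411. Hit 2 against DMSO in knock-in mice gave -0.41 (standard error 0.35; edgeR adjusted p = 0.898), and 0.29 without 409 and 411, which turns its direction. Without 410, the median of the 3 genes in Het Hit 2 against WT DMSO went from 0.32 to -0.16.

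Microglial markers moved with these genes in some libraries, though Psmb9 did not follow them in 411. There it had 0.808 CPM, the lowest of the Het DMSO libraries. A list of 12 microglial markers summed to 92.0 to 130 CPM in WT DMSO, 103 to 253 CPM in Het DMSO and 92.9 to 182 CPM in Het Hit 2. The highest sums were those of 411 and 410, at 253 and 182 CPM. All 12 markers in each of these libraries were above every WT DMSO library, and no marker was at 0 in any library. The summed oligodendrocyte markers were also highest in 411 and 410, at 6910 and 5781 CPM, against 1355 to 3608 CPM in the other 10. The summed endothelium and pericyte markers were likewise highest in 411 and 410, at 469 and 466 CPM, against 292 to 388 CPM in the others. Purkinje and granule cell markers were lowest in 411 and next lowest in 410, where they summed to 3597 and 4385 CPM. The part of these cell types in the values of Psmb8, Psmb9 and Psmb10 was not tested.

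**Figure D4:**
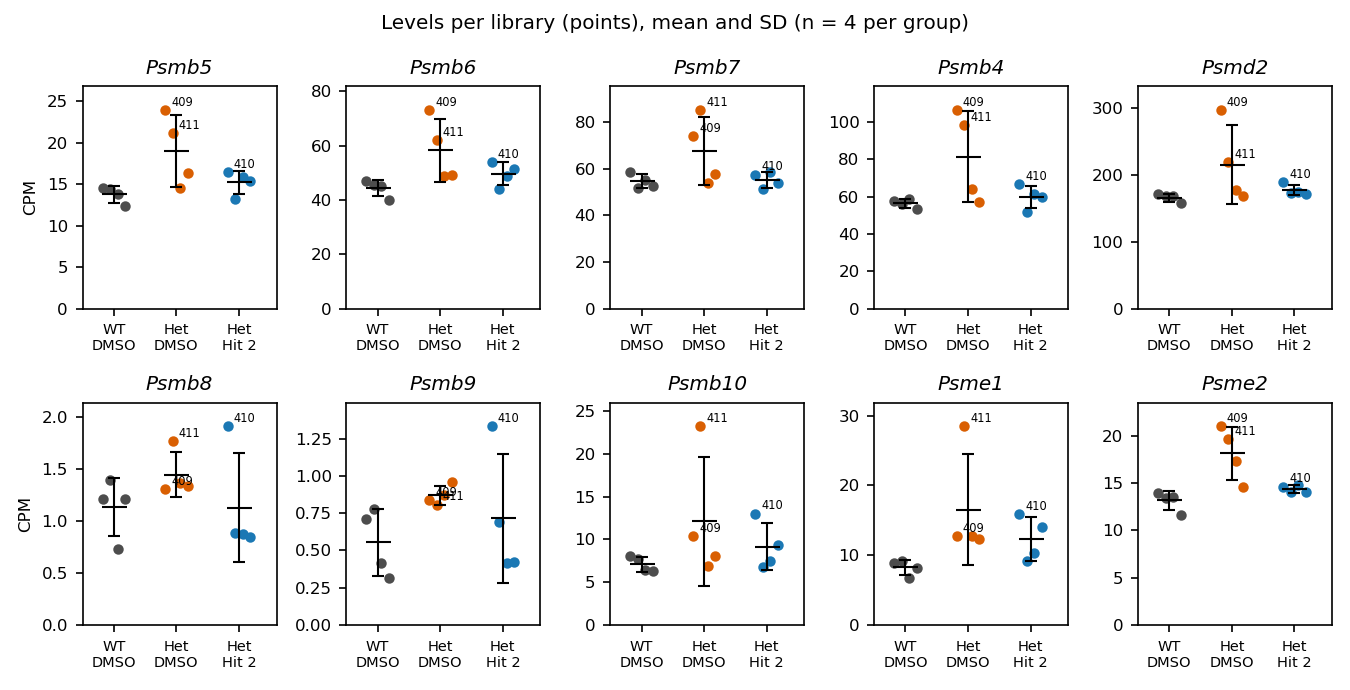
CPM of 10 members in each library (points), with the mean and SD of each group (n = 4); numbers mark libraries 409, 411 and 410. The constitutive genes in Het DMSO are highest in 409 and 411, Psmb8 and Psmb9 are highest in 410, and Psme1 and Psme2 are higher in all 4 Het DMSO libraries than in any WT DMSO library.

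In the base of the regulatory particle, 5 of the 6 ATPases and all 3 other subunits had a log2 fold change above 0 in Het DMSO against WT DMSO, the exception being Psmc6. Without 409 and 411 these counts were 5 of 6 and 1 of 3. Psmc5, the most abundant ATPase per kb, had 85.4, 80.1, 82.2 and 75.2 CPM in WT DMSO, 87.8, 114, 81.7 and 90.1 CPM in Het DMSO and 88.5, 75.4, 78.3 and 80.5 CPM in Het Hit 2. Psmc4 had 63.4, 60.2, 62.4 and 59.8 CPM in WT DMSO, 102, 70.6, 66.1 and 63.1 CPM in Het DMSO and 66.4, 65.8, 63.8 and 64.0 CPM in Het Hit 2. All Het Hit 2 libraries of Psmc4 were above all of WT DMSO, though the closest pair differed by only 0.39 CPM and the edgeR adjusted p was 1.00. Psmc3, with the smallest p of this list in Het Hit 2 against Het DMSO, had 87.1, 78.9, 83.7 and 78.6 CPM in WT DMSO, 125, 98.0, 87.1 and 80.4 CPM in Het DMSO and 83.0, 77.5, 85.7 and 82.4 CPM in Het Hit 2. Its groups overlapped. Psmc6 was unlike the other ATPases in 409, at 16.5 CPM against 40.4 to 49.4 CPM in the other 11 libraries.

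Psmd2, a base scaffold that receives ubiquitin and its shuttle proteins, was the regulatory gene with the smallest p. It had 171, 168, 168 and 157 CPM in WT DMSO, 298, 220.0, 177 and 169 CPM in Het DMSO and 189.6, 173, 175 and 172 CPM in Het Hit 2. Library 409 was far above the rest and 411 next, while 429 lay within the wild-type range. Its log2 fold change was 0.38 (standard error 0.16; edgeR unadjusted p = 0.0381, adjusted p = 0.616) between Het DMSO and WT DMSO, and 0.05 without 409 and 411. Against WT DMSO, Het Hit 2 stood at 0.09 (standard error 0.16; edgeR adjusted p = 1.00) without overlap between the groups, and at 0.08 in the fit without 409 and 411. Psmd4, a ubiquitin receptor, had 67.6, 64.0, 63.0 and 63.3 CPM in WT DMSO, 108, 82.8, 64.2 and 65.1 CPM in Het DMSO and 75.5, 65.4, 66.3 and 71.5 CPM in Het Hit 2. Libraries 409 and 411 were highest, and 410 next.

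All 8 lid subunits had a log2 fold change above 0 in Het DMSO against WT DMSO, from 0.02 for Psmd11 to 0.26 for Psmd13, against 55.8% of all genes. At an unadjusted p under 0.05 there were 0 of 8, where 4.77% of all genes were higher and 2.34% lower. Without 409 and 411, 5 of the 8 were above 0. Psmd13 had 40.9, 39.2, 39.9 and 37.6 CPM in WT DMSO, 58.9, 50.6, 40.2 and 39.1 CPM in Het DMSO and 39.3, 39.6, 42.7 and 43.0 CPM in Het Hit 2. Psmd3, the most abundant lid subunit per kb, had 95.7, 96.0, 93.0 and 93.2 CPM in WT DMSO, 143, 93.2, 95.03 and 93.7 CPM in Het DMSO and 94.2, 98.6, 98.0 and 105 CPM in Het Hit 2. Library 409 stood above the rest for both, and 411 only for Psmd13. Psmd8 had 64.2, 59.1, 57.7 and 62.5 CPM in WT DMSO, 71.1, 57.4, 67.2 and 59.0 CPM in Het DMSO and 60.2, 63.4, 68.8 and 61.6 CPM in Het Hit 2. Its groups overlapped. Psmd14, the deubiquitinase of the lid, ranged from 30.6 to 50.4 CPM over the 12 libraries, with a log2 fold change of 0.11 in Het DMSO and 0.07 in Het Hit 2 against WT DMSO.

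With all 12 libraries, Psme1 was the member with the largest difference between Het DMSO and WT DMSO. Without 409 and 411 Psmb9 was larger, at 0.69 in log2 fold change (standard error 0.52). Psme1 had 8.88, 9.21, 6.80 and 8.19 CPM in WT DMSO, 12.7, 28.5, 12.7 and 12.3 CPM in Het DMSO and 15.92, 9.24, 10.3 and 14.03 CPM in Het Hit 2. Every knock-in library, treated or not, was above every wild-type library, although Het Hit 2 library 421 did so by only 0.03 CPM. In Het DMSO, 409, 420 and 429 lay close together and 411 far above them. Het DMSO differed from WT DMSO by 1.00 on the log2 scale (standard error 0.29; edgeR unadjusted p = 0.00472, adjusted p = 0.616), and 0.58 without 409 and 411 (unadjusted p = 0.0187, adjusted p = 0.650). Het Hit 2 differed from WT DMSO by 0.58 (standard error 0.29; edgeR adjusted p = 1.00), and 0.56 without 409 and 411 (unadjusted p = 0.00839, adjusted p = 0.2704). Between Het Hit 2 and Het DMSO the log2 fold change was -0.42 (standard error 0.29; edgeR adjusted p = 0.898), and -0.019 without 409 and 411.

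Psme1 was highest in 411 and 410, where the summed microglial markers were also highest. In 409, 420 and 429 these sums were 128, 103 and 128 CPM, within the wild-type range, and Psme1 was at 12.3 CPM or more, where the wild type had at most 9.21 CPM. Of the 12 microglial markers, 6 in 409, 1 in 420 and 3 in 429 were above every WT DMSO library. The part of microglia in the values of Psme1 was not tested.

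Psme2, its partner in the ring, had 13.99, 13.5, 13.5 and 11.7 CPM in WT DMSO, 21.01, 19.7, 17.3 and 14.6 CPM in Het DMSO and 14.6, 14.04, 14.8 and 14.03 CPM in Het Hit 2. Each of the Het DMSO libraries was above the wild type, 409 most of all, and the Het Hit 2 libraries lay in a narrow band just above the wild type. Its log2 fold change was 0.46 (standard error 0.13; edgeR unadjusted p = 0.00489, adjusted p = 0.616) between Het DMSO and WT DMSO, and 0.26 without 409 and 411 (unadjusted p = 0.0318, adjusted p = 0.777). It was -0.34 (standard error 0.13; unadjusted p = 0.0276, adjusted p = 0.898) for Het Hit 2 against Het DMSO, and -0.15 with 409 and 411 left out. Relative to WT DMSO, Het Hit 2 had 0.13 (standard error 0.13; edgeR adjusted p = 1.00). Psme2b, a near copy of Psme2, had 2 to 12 reads per library and was left out of the edgeR fit reported here by the filter on low counts; reads that fit both copies could be assigned to neither, so its value and that of Psme2 are uncertain to that extent.

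Psme3, which forms the nuclear activator ring, had 77.5, 70.4, 68.2 and 77.0 CPM in WT DMSO, 114, 95.5, 74.1 and 77.8 CPM in Het DMSO and 78.1, 73.3, 76.8 and 78.3 CPM in Het Hit 2. Libraries 409 and 411 were highest, and the log2 fold change in Het DMSO against WT DMSO was 0.30 (standard error 0.13; edgeR unadjusted p = 0.0428, adjusted p = 0.616), and 0.04 without them. Psme4, the large nuclear activator, went the other way in these libraries. It had 119, 123, 128 and 133 CPM in WT DMSO, 39.7, 79.4, 133 and 133 CPM in Het DMSO and 116, 126, 127 and 116 CPM in Het Hit 2, so 409 and 411 were the lowest of all 12. The inhibitor Psmf1 ranged from 34.2 to 45.0 CPM over the 12 libraries.

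The chaperones of the base bind single ATPases before the regulatory particle forms. Psmd10, which is also known as gankyrin, had 6.46, 4.99, 5.75 and 5.68 CPM in WT DMSO, 7.61, 12.2, 5.60 and 7.68 CPM in Het DMSO and 6.66, 5.14, 5.47 and 5.49 CPM in Het Hit 2. Library 411 was highest, with 429 and 409 next, while 420 lay within the wild-type range. The log2 fold change came to 0.53 (standard error 0.22; edgeR unadjusted p = 0.0348, adjusted p = 0.616) between Het DMSO and WT DMSO and -0.54 (standard error 0.22; unadjusted p = 0.0328, adjusted p = 0.898) for Het Hit 2 against Het DMSO. With 409 and 411 left out they were 0.21 and -0.23. Psmd5 had 33.2, 34.99, 31.8 and 35.2 CPM in WT DMSO, 37.1, 50.3, 35.7 and 35.1 CPM in Het DMSO and 36.2, 36.8, 36.7 and 39.5 CPM in Het Hit 2. All its Het Hit 2 libraries were above all of WT DMSO, by 0.14 in log2 fold change (standard error 0.12; edgeR adjusted p = 1.00), and 0.13 without 409 and 411 in the fit (unadjusted p = 0.0407, adjusted p = 0.495). Psmd9, the most abundant base chaperone per kb, had 24.8, 26.0, 26.5 and 27.1 CPM in WT DMSO, 42.8, 28.0, 27.1 and 25.4 CPM in Het DMSO and 25.6, 24.5, 28.4 and 29.3 CPM in Het Hit 2. Only 409 stood apart.

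The core chaperones, which pair alpha subunits into rings, were the list that leaned lower in Het DMSO, with 3 of 4 below 0 and a median log2 fold change of -0.12 (-0.19 without 409 and 411). Psmg2 had 7.64, 6.67, 7.58 and 6.98 CPM in WT DMSO, 3.30, 5.15, 6.85 and 6.47 CPM in Het DMSO and 5.85, 6.13, 6.97 and 6.47 CPM in Het Hit 2. Its log2 fold change in Het DMSO against WT DMSO was -0.41 (standard error 0.21; edgeR unadjusted p = 0.0775, adjusted p = 0.616), with 409 and 411 lowest, and -0.13 without them. Psmg4 had 3.497, 3.09, 2.80 and 3.13 CPM in WT DMSO, 3.05, 3.38, 2.30 and 2.92 CPM in Het DMSO and 3.76, 2.97, 3.17 and 4.36 CPM in Het Hit 2. Psmg1, the most abundant of them per kb, had 7.35, 6.997, 8.03 and 8.24 CPM in WT DMSO, 8.03, 7.27, 6.04 and 6.59 CPM in Het DMSO and 7.24, 5.49, 7.10 and 8.59 CPM in Het Hit 2. With all libraries the groups overlapped for both genes. For Psmg1, the Het DMSO libraries other than 409 and 411 lay below every WT DMSO library. Its log2 fold change was then -0.28 (standard error 0.17, edgeR unadjusted p = 0.125, adjusted p = 0.974). Psmg4 was at -0.26 in that fit, with overlap. In Het Hit 2 against Het DMSO it was then at 0.44 without overlap (standard error 0.21, edgeR unadjusted p = 0.0607, adjusted p = 0.983). Psmc3ip, the member outside the proteasome, had 2.11, 2.17, 2.69 and 2.51 CPM in WT DMSO, 2.27, 0.959, 2.05 and 2.79 CPM in Het DMSO and 1.45, 2.37, 2.25 and 1.92 CPM in Het Hit 2, lowest in 411 and 410.

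Of the members given so far by their CPM alone, Psme4 had log2 fold changes of -0.39 in Het DMSO and -0.06 in Het Hit 2, both against WT DMSO, and 0.33 between the knock-in groups, while without 409 and 411 these were 0.07, -0.07 and -0.14. For Psma7, Psmc3, Psmc4, Psmc5, Psmd4 and Psmd9 the values were 0.21 to 0.31 in Het DMSO against WT DMSO and -0.26 to -0.20 in Het Hit 2 against Het DMSO. In the fit without 409 and 411 they ran from -0.02 to 0.08 and from -0.10 to 0.10. Psmc6, with -0.15 and 0.21, went the other way, and was at 0.08 and -0.03 without these libraries. The members Psma1, Psma2, Psma3, Psma4, Psma6, Psmb1, Psmb2, Psmb3, Psmc1, Psmc2, Psmd1, Psmd3, Psmd6, Psmd7, Psmd8, Psmd11, Psmd12, Psmf1, Psmg1, Psmg3 and Psmg4 ran from -0.13 to 0.21 in the first comparison, from -0.14 to 0.29 in the second, and from -0.11 to 0.19 in the third. Without 409 and 411 they ran from -0.28 (Psmg1) to 0.12 (Psmg3) in the first and from -0.06 (Psma1) to 0.44 (Psmg4) in the second. In the third they then ran from -0.12 (Psmg1) to 0.17 (Psmg4). The members with an edgeR unadjusted p under 0.05 in any of the 3 comparisons were described above. This paragraph therefore holds 0 of them by its selection.

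The deviations of the members in library 409 followed the base composition of their transcripts. The 15 members of lowest GC content (37.0% to 47.9%) had a median deviation of -0.34 in log2 CPM, and 3 of them were above 0. The 15 members of highest GC content (52.8% to 58.3%) had a median of 0.55, and 14 were above 0. Spearman's rho between GC content and deviation was 0.69 over the 47 tested members and 0.71 over 19346 genes in 409. In 411 it was -0.04 over the members and 0.05 over all genes. These are correlations across genes of 1 library, which share its preparation and depth, and are given as descriptions. Psmc6, at 37.0% GC, and Psme4, at 43.9%, were the members furthest below their median in 409, by -1.43 and -1.65. Psmb4, at 52.2% GC, was furthest above, by 0.84.

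**Figure D5:**
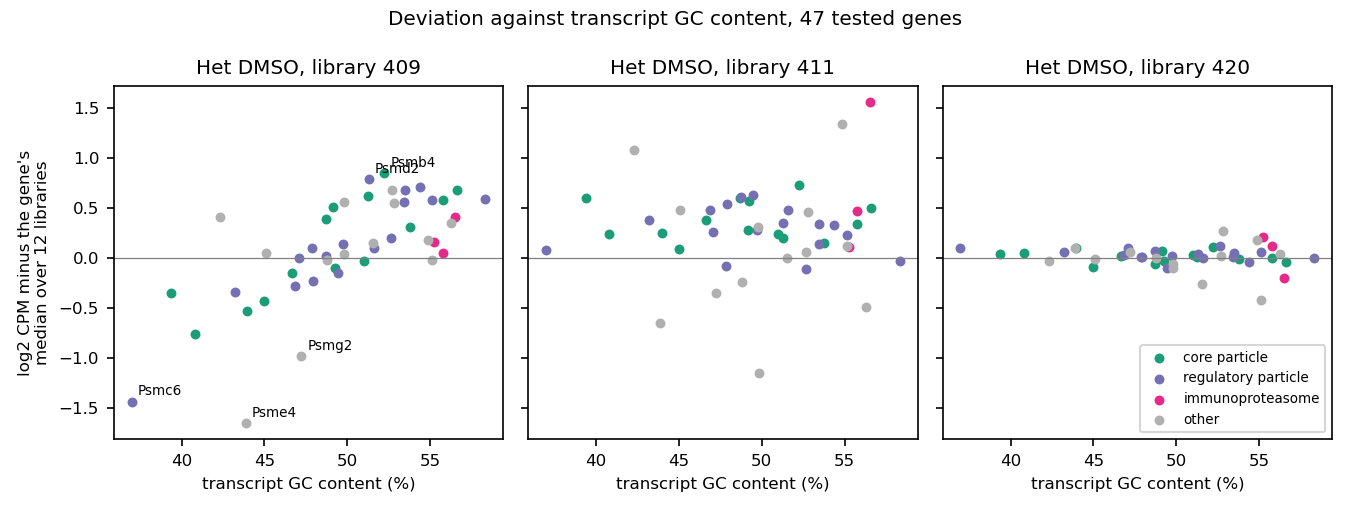
Deviation of each of the 47 tested members from its median log2 CPM over the 12 libraries against the GC content of its transcript, in Het DMSO libraries 409, 411 and 420. Deviations go up with GC content in 409, are mostly above 0 without such a slope in 411, and stay near 0 in 420.

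Other genes of the pathway were read from lists of genes that work with the proteasome. Of 11 proteasome genes outside the symbol pattern, among them the ubiquitin receptor Adrm1, the maturation factor Pomp and the deubiquitinases Usp14 and Uchl5, edgeR called 0 in any comparison. Zfand2a, a stress-induced regulator that binds the proteasome, ranked first by p between Het DMSO and WT DMSO, at 0.40 in log2 fold change (unadjusted p = 0.00954, adjusted p = 0.616). With all libraries it was the only one of the 11 with an unadjusted p under 0.05 in any comparison. In Het DMSO against WT DMSO 4.77% of all genes were higher at that threshold and 2.34% lower. Zfand2a was at 0.14 without 409 and 411 (unadjusted p = 0.0774). Zfand5, another zinc finger protein that binds the proteasome, was then the one gene of the list under that threshold in Het DMSO against WT DMSO, at 0.32 (unadjusted p = 0.00237, adjusted p = 0.313), and in Het Hit 2 against Het DMSO, at -0.32 (unadjusted p = 0.00236, adjusted p = 0.983). In Het Hit 2 against WT DMSO it was Zfand2a in that fit, at 0.17 (unadjusted p = 0.0154, adjusted p = 0.352). With all libraries Zfand5 was at -0.05 and 0.06, and it was lowest in 411 and 409. Of 7 genes that control proteasome transcription, 0 were called. Nfe2l1, the factor that raises subunit genes when the proteasome is blocked, stood at 0.32 (log2) between Het DMSO and WT DMSO and -0.31 in Het Hit 2 against Het DMSO (unadjusted p = 0.165 and 0.182). Both turned without 409 and 411, to -0.11 and 0.11 (unadjusted p = 0.478 for each). Its small Maf partner Mafg had 0.51 and -0.47 (unadjusted p = 0.0202 and 0.0302), and 0.23 and -0.20 without 409 and 411 (unadjusted p = 0.101 and 0.143). For the 6 shuttle factors that bring ubiquitin conjugates to the proteasome, 0 had an unadjusted p under 0.05 in any comparison. In the first comparison 4.77% of all genes were higher at that threshold and 2.34% lower. In the second 0.753% were higher and 0.8% lower, and in the third 1.71% were under it. For 6 genes, 0 is near these shares.

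Of 5 ubiquitin genes and ubiquitin-activating enzymes, edgeR called 0 in any comparison. Among 10 genes of peptide presentation and interferon response, 0 were called and 2 had an unadjusted p under 0.05 with a higher value in Het DMSO than in WT DMSO, where 4.77% of all genes had. The 2 were the peptide transporter subunits Tap2, at 0.70 (standard error 0.19; edgeR unadjusted p = 0.00354, adjusted p = 0.616), and Tap1, at 0.72 (standard error 0.28; unadjusted p = 0.024). Without 409 and 411, Tap1 was at 0.38 (unadjusted p = 0.178), and 1 of the 10 genes, Tap2, was under that threshold. Tap2 had 10.99, 11.05, 11.3 and 11.4 CPM in WT DMSO, 26.6, 14.9, 15.2 and 15.93 CPM in Het DMSO and 13.96, 16.8, 16.2 and 12.2 CPM in Het Hit 2. All 8 knock-in libraries were above all 4 wild-type libraries, with 409 highest. Without 409 and 411, Tap2 was at 0.47 in Het DMSO (edgeR unadjusted p = 0.00394, adjusted p = 0.381) and at 0.39 in Het Hit 2 (unadjusted p = 0.00361, adjusted p = 0.188), each against WT DMSO. The interferon-regulated gene Irf1 had a log2 fold change of 0.20 between Het DMSO and WT DMSO (edgeR unadjusted p = 0.509), and -0.16 without 409 and 411.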

How the data were processed

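Per the labels' protocols, RNA depleted of ribosomal RNA (500 ng) was made into directional libraries (13 amplification cycles) and sequenced from both ends to 100 bases each. Per the submitters' processing notes, FastQC 0.11.9 and STAR 2.7.10a were used with GRCm39 (mm39). The values are the counts per gene the authors deposited, without normalization; the column for the opposite strand was used, since the same-strand column held only 5.21% to 6.47% of the stranded reads. Reads without a gene (44.7% to 54.6% of all reads), multimapping (4.08% to 7.01%), unmapped and ambiguous reads stayed out of library sizes.

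Names, lengths and GC content came from GENCODE M21 (GRCm38), which matched 55141 of 55401 gene IDs; since its build differs from that of the counts, coordinates are given only for RefSeq promoters on GRCm38.p6. Counts were fitted in R 4.3.3 with edgeR 4.0.16 (TMM, filterByExpr, quasi-likelihood test, all 12 libraries in 1 fit, 2-sided), with Benjamini-Hochberg adjustment over 19378 genes. The SE is the log2 fold change over the square root of F. Exact 2-sided permutation tests (70 assignments, smallest p 0.0286) used SciPy on log2 CPM with a prior count of 2. On simulated counts for Het DMSO against WT DMSO (19378 genes), 30% of genes changed 2-fold and 80% of those changed 4-fold were recovered, with 8 false calls. The simulation gave each gene the same dispersion in all groups. In the data the median SD of log2 CPM was 0.52 in Het DMSO and 0.16 in WT DMSO. These shares therefore hold for a simpler setting than the data.

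Alternatives were DESeq2 1.42.0, limma 3.58.1 with library weights, RLE factors, 2 other filters on low counts, unstranded counts, robust dispersion, only the groups compared, each library left out, libraries 409 and 411 or 425 and 426 left out, and, chosen after seeing the data, a GC offset. Members given per library were the catalytic subunits, members whose groups did not overlap or whose unadjusted p was under 0.05, and in each role list the most abundant and the one of smallest p. The members and lists were chosen with earlier results of these data known. Each library is 1 mouse, and the labels name no batch. Results of some listed pathway genes are not reported here.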

Additional observations from a re-analysis of the deposited data

Results flagged for a closer look

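In 26 measures, the named genes and class scores, the highest and lowest libraries of each group of 4 were set against the rest of the group (78 checks), and 5 stood far from the others, where chance gives about 3.9. Library 411 accounted for 3 and library 410 for 2.

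In Het DMSO, library 411 stood apart for Psme1, at 4.83 log2 CPM against 3.68 in the next library, for Psmd5, at 5.65 against 5.22, and for Psmb8, at 0.88 against 0.53. In Het Hit 2, library 410 stood apart for Psmb8, at 0.99 log2 CPM against -0.06 in the next library. It also did so for the immunoproteasome score, the mean deviation of Psmb8, Psmb9 and Psmb10 from their medians, at 0.69 against -0.26. Summed microglial markers were highest in these same libraries, at 253 CPM in 411 and 182 CPM in 410, and their part in these values was not tested.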

How the results depend on the processing

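With 4 mice a group, 0 members were called in any comparison under each of the 23 alternatives run, which include DESeq2 and limma. The number of members with an unadjusted p under 0.05 ran from 2 to 17 for Het DMSO against WT DMSO (main 11; 4 without WT DMSO library 431, 7 without Het DMSO library 411, 17 without 429 or with the GC offset, 2 with library weights, 2 without 425 and 426, 2 without 409 and 411), from 0 to 9 for Het Hit 2 against Het DMSO (main 3; 9 without 429) and from 0 to 2 for Het Hit 2 against WT DMSO (main 0). Adjusted p values of the 49 gene results ran from 0.160 to 1. No paired analysis was possible because the numbers of the animals do not recur between groups.

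Of the class medians (log2), 199 values over settings stayed within the spread between libraries of the main value and 8 did not. Without 409 and 411 the immunoproteasome median of Het DMSO against WT DMSO was 0.24 (main 0.63), and the regulatory medians came to 0.036 (main 0.16) there and to 0.0082 (main -0.10) in Het Hit 2 against Het DMSO. With library weights these regulatory medians were 0.056 and -0.0011. Without 425 and 426 the regulatory median of Het Hit 2 against WT DMSO was 0.017 (main 0.06). Leaving out each library in turn, the immunoproteasome median ran from 0.27 (without 411) to 0.81 for Het DMSO against WT DMSO and from -0.16 (without 410) to 0.45 for Het Hit 2 against WT DMSO. The cause was not tested.

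Single genes changed direction in 10 of 49 results, none with an adjusted p under 0.05. With 409 and 411 left out, Het Hit 2 against Het DMSO turned to 0.29 for Psmb10, 0.015 for Psmb6, 0.051 for Psmd13 and 0.036 for Psmd2, and Het DMSO against WT DMSO turned to 0.031 for Psmc3ip and -0.00017 for Psmd13. With library weights, Psmb7 turned to -0.012 in Het Hit 2 against WT DMSO, Psmc3ip to 0.017 in Het DMSO against WT DMSO, and Psmd13 to 0.032 and Psmd2 to 8.96e-05 in Het Hit 2 against Het DMSO. Psmb7 in Het Hit 2 against WT DMSO also turned to -0.024 with unstranded counts and -0.013 without 425 and 426. Psmc3ip in Het Hit 2 against Het DMSO turned to 0.0086 with a mean of at least 50 reads, 0.036 with the GC offset and 0.0047 with only the groups compared. With each library left out in turn, Het Hit 2 against Het DMSO ran from -0.63 (without 410) to 0.074 (without 411) for Psmb10 and from -0.27 (without 411) to 0.18 (without 429) for Psmc3ip. Het DMSO against WT DMSO ran from -0.42 (without 429) to 0.020 (without 411) for Psmc3ip. Het Hit 2 against WT DMSO ran from -0.012 (without 422) to 0.052 (without 413) for Psmb7, from -0.39 (without 410) to 0.096 (without 425) for Psmb8 and from -0.16 (without 410) to 0.53 (without 425) for Psmb9.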
